A study of Caenorhabditis elegans with 78 samples.

Results

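Trimethylation of lysine 4 on histone H3 (H3K4me3) was compared between lin-15B(n744) mutant and wild-type (N2) Caenorhabditis elegans larvae at 26 °C. The 4 peak lists concerned, 2 for lin-15B and 2 for wild type, were merged wherever their peaks overlapped, which gave 8953 regions. A region was called gained when both lin-15B lists and neither wild-type list held a peak in it, and lost in the reverse case. This gave 551 gained regions, 6.15% of all merged regions, and 189 lost regions, 2.11%. These peak calls chose the regions, so the 2 numbers are a description without a test.

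The series holds 78 chromatin immunoprecipitation (ChIP-seq) samples, inputs included, of 3 mutants, lin-37(n758), lin-35(n745) and lin-15B(n744), and of wild-type animals. All were whole, starved first-stage (L1) larvae. The 26 °C animals descended from parents moved there from 20 °C at the L4 stage, and the 20 °C animals were never shifted. Each genotype had 2 H3K4me3 lists and 2 lists of dimethylated lysine 9 (H3K9me2) per temperature, each called against an input library, and for the 4 lists compared here the labels name a separate input replicate each. The labels do not say whether replicates were separate cultures, so the spread between them may be technical. Because whole larvae were used, a mark in fewer cells and less mark per cell cannot be told apart. The lists name no genes and no ce10 annotation was used, so the larvae were not checked against tissue markers and regions are given by position.

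H3K4me3 marks the promoters of genes that are being transcribed, whereas H3K9me2 is a mark of repressed chromatin that in worms covers much of the repeat-rich autosome arms. LIN-15B is a THAP-domain DNA-binding protein of the synMuv B class, which keeps germline genes silent in somatic cells. LIN-35, the worm retinoblastoma protein, and LIN-37 are members of the DREAM complex, which belongs to the same class, and larvae of several synMuv B mutants arrest when raised at high temperature.

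The 4 lists fell into pairs by library code as well as by genotype. The code SSJK001 stood on lin-15B replicate 1 and wild-type replicate 2, and SSTE100 on lin-15B replicate 2 and wild-type replicate 1; the labels do not explain the codes. The lin-15B lists held 5877 (SSJK001) and 8011 (SSTE100) distinct peaks, against 6098 (SSJK001) and 7424 (SSTE100) in wild type. The Jaccard index, the shared length over the combined length of 2 lists, was 0.592 between the lin-15B lists and 0.666 between the wild-type lists. It was 0.659 between the SSTE100 lists and 0.618 between the SSJK001 lists, so sharing a code went with about as much overlap as sharing a genotype. The 2 pairs that shared neither stood at 0.551 and 0.580, the latter close to the lin-15B pair. A further 700 regions were called in both SSTE100 lists and neither SSJK001 list, more than were gained. Only 6 regions showed the reverse. The part of the code in the results was not tested.

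Most regions did not separate the genotypes. Peaks of all 4 lists met in 4276 regions, 47.8% of the total, and 2102 regions had a peak in a single list. Within the SSTE100 pair alone, 1802 of 8830 regions (20.4%) were called in lin-15B only and 1023 (11.6%) in wild type only. Within the SSJK001 pair the balance turned, with 1120 of 7090 regions (15.8%) in lin-15B only and 1477 (20.8%) in wild type only. The excess of gained over lost regions therefore held within SSTE100 and not within SSJK001. Leaving out a library moved the counts too: 1667 regions were gained without lin-15B replicate 1. Without lin-15B replicate 2, 986 regions were lost, against 1004 without wild-type replicate 2 and 364 without wild-type replicate 1. Fewer lists set fewer conditions, so higher counts here and within a code were largely fixed in advance.

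Gained regions ranked higher within the lin-15B lists than lost regions did within the wild-type lists. The fold enrichment over input at a peak's summit is the authors' own value, and it is used here only to describe and rank peaks within a list. Gained regions had a median fold of 5.84 (range 2.31 to 67.0) in lin-15B replicate 1 and 4.21 (1.62 to 30.7) in lin-15B replicate 2. These medians lay at the 38.2 and 49.5 percentile of their lists, and 181 (32.9%) and 272 (49.4%) of the gained regions stood above the list's median. Gained regions thus spread over most of the range of each mutant list. Lost regions had a median fold of 2.24 (1.48 to 5.91) in wild-type replicate 1 and 3.16 (1.59 to 8.56) in wild-type replicate 2. Their median percentiles were 27.2 and 18.3, and only 13 and 1 of the 189 stood above the list's median. Lost regions were almost all among the weaker peaks of the wild-type lists. Regions called in all 4 lists had median folds of 12.4 and 11.1 in lin-15B replicates 1 and 2 and of 8.36 and 13.1 in wild-type replicates 1 and 2, each above the median of the gained or lost regions of that list.

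**Figure D1:**
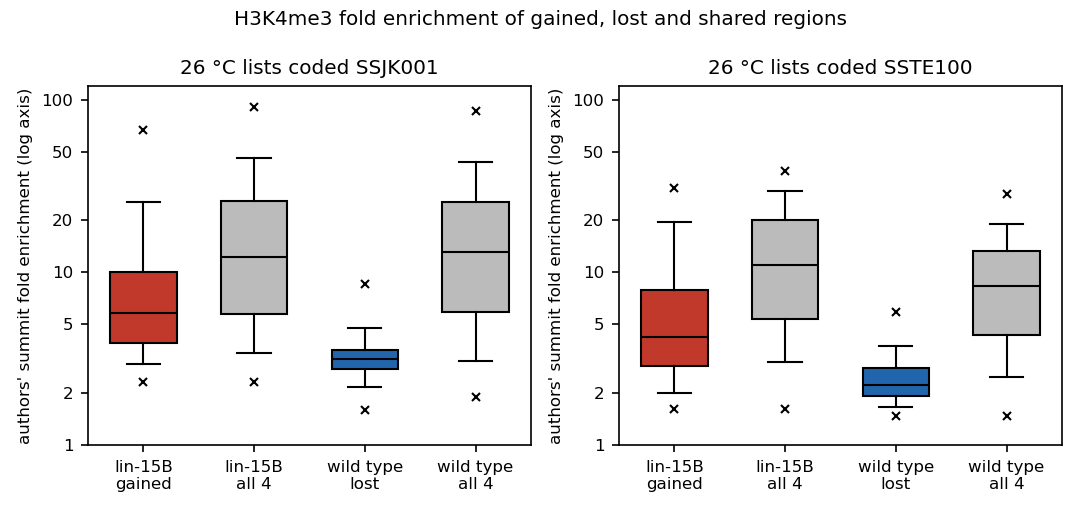
Authors' summit fold enrichment on a log axis, in the 26 °C lists of each library code, for gained regions (lin-15B), lost regions (wild type) and regions called in all 4 lists. Boxes are quartiles with the median, whiskers the 5 and 95 percentiles and crosses the extremes; gained regions reach folds of 67.0 (SSJK001) and 30.7 (SSTE100), whereas no lost region exceeds 8.56.

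Width followed the same order. The median merged region was 671 bp wide among gained regions and 449 bp among lost regions, against 1197.5 bp among regions called in all 4 lists and 761 bp over all merged regions. A width over 1000 bp was found in 111 gained regions (20.2%) and 5 lost regions (2.65%), compared with 36.1% of all merged regions. At the edge of the definition, 257 regions were called in both lin-15B lists and 1 wild-type list. In 234 of them the wild-type peak was in SSTE100, with a median fold of 2.22, and in 23 it was in SSJK001, with a median fold of 3.41. Conversely, 761 regions were called in both wild-type lists and 1 lin-15B list, and 756 of these were absent only from lin-15B replicate 1. Just inside the definition, the weakest gained peaks had a −log10 q of 2.2 in lin-15B replicate 1 and 4.05 in replicate 2, and the weakest lost peaks 2.45 and 2.02 in wild-type replicates 1 and 2.

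The 10 gained regions that ranked highest in both lin-15B lists all lay on autosome arms. The first, on the left arm of chromosome III (ce10, chrIII:1411972-1414482), had folds of 67.0 and 30.7 in lin-15B replicates 1 and 2 at 26 °C and 34.4 and 28 in the 20 °C lin-15B lists. No wild-type list of either temperature held an H3K4me3 peak there. A region near the left end of chromosome IV (chrIV:193897-194931) had folds of 54.9 and 26.6 in the 26 °C lin-15B lists. It carried H3K9me2 in both wild-type lists and in neither lin-15B list at 26 °C. The widest of the 10, at 3030 bp on the left arm of III (chrIII:195095-198124), had folds of 43.2 and 26.4 in the 26 °C lin-15B lists and kept H3K9me2 in both of them. A 678 bp region on the right arm of V (chrV:20168178-20168855) had folds of 40.7 and 25.4 in lin-15B and no peak in any lin-35 or lin-37 list at 26 °C.

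The other 6 reached between 32.9 and 44.3 in lin-15B replicate 1 and between 21.9 and 24.5 in replicate 2. They lay at chrII:3499096-3500198, chrII:15230680-15231379, chrIV:1170610-1171844, chrIV:17273264-17273986, chrIII:12362917-12363809 and chrV:17145303-17145915. All 10 were called in both 20 °C lin-15B lists and in neither 20 °C wild-type list. In wild type at 26 °C, 9 of the 10 had an H3K9me2 peak in both lists, and all 10 did at 20 °C. In lin-15B at 26 °C, 4 of the 10 had H3K9me2 in both lists and 5 in neither. H3K4me3 was called in both lin-35 and both lin-37 lists of 26 °C at 8 of the 10.

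By the lower of their 2 within-list percentiles, the 10 named gained regions stood between 88.7 and 98.3 in the lin-15B lists, and the 5 named lost regions between 44.2 and 55.3 in the wild-type lists. A 453 bp region on the right arm of III (chrIII:13193249-13193701) had folds of 4.37 and 8.56 in wild-type replicates 1 and 2 at 26 °C and no peak in any 20 °C lin-15B or wild-type list. A region in the centre of III (chrIII:6626155-6626494) had wild-type folds of 5.13 and 6.65, but was also called in 1 lin-15B list at 20 °C. On the left arm of IV (chrIV:1989357-1990270) the wild-type folds were 3.75 and 6.23, with no peak in the 20 °C lists of lin-15B or wild type. On X, a region at chrX:1419373-1419845 had folds of 5.80 and 6.07 in wild type at 26 °C and 5.25 and 4.83 in wild type at 20 °C. It was absent from all 4 lin-15B lists, as were the chrIII:13193249-13193701 and chrIV:1989357-1990270 regions, but of these 3 it alone was called in the 20 °C wild-type lists. The last, also on X (chrX:17297115-17297573), had wild-type folds of 3.97 and 5.65 at 26 °C, and at 20 °C was called in 1 lin-15B list (fold 3.13) and both wild-type lists (7.14 and 6.33).

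Gained regions were concentrated on the autosome arms, taken here as the outer 30% at each end of a chromosome. Of the 527 autosomal gained regions, 416 (78.9%) lay on arms, compared with 89 of 156 lost regions (57.1%), 50.7% of regions called in all 4 lists and 53.9% of all merged regions. On each of the 5 autosomes, the share of regions that was gained was higher on both arms than in the centre. It was between 6.15% and 14.3% on the arms and between 2.32% and 3.68% in the centres, with the highest value on the left arm of I. Among whole chromosomes, III had the highest share of gained regions at 7.92%, followed by IV at 7.51%, I at 7.37%, II at 6.24% and V at 5.25%. On X it was 1.85%. In all, 24 gained regions (4.36%) lay on X, against 33 lost regions (17.5%) and 14.5% of all merged regions. Lost regions made up between 1.58% and 2.62% of the regions of every chromosome. Within either library code the arm share of gained regions fell and their X share rose, each toward its value in all merged regions. On arms lay 60.9% of the autosomal gained regions within SSTE100 and 68.6% within SSJK001, and 11.1% and 10.9% of gained regions lay on X. A comparison within a code also rests on fewer lists. Leaving out each library in turn, without splitting by code, gave 61.1% to 79.2% on arms and 4.86% to 10.6% on X. The code was therefore not separated from the smaller number of lists.

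**Figure D2:**
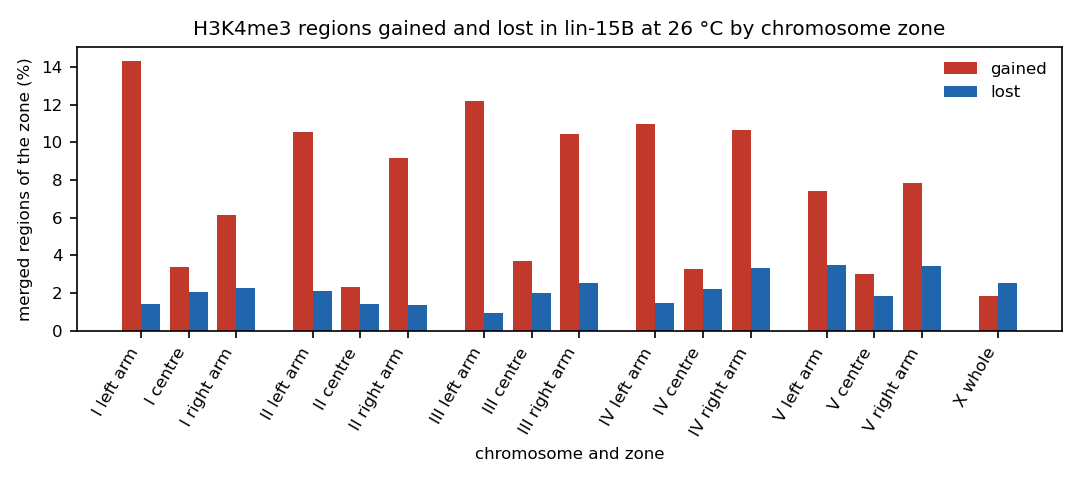
Gained and lost regions as a percentage of the merged regions in each zone, for the left arm, centre and right arm of the 5 autosomes and for the whole of X. Gained shares reach 14.3% on the left arm of I and stay at or under 3.68% in every autosome centre and 1.85% on X.

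Most gained regions carried the repressive mark in wild type. Of the 551 gained regions, 316 (57.4%) overlapped an H3K9me2 peak in both wild-type lists of 26 °C, 80 in 1 of them and 155 in none. The same held for 35 of 189 lost regions (18.5%), 957 regions called in all 4 lists (22.4%) and 2000 of all merged regions (22.3%). The share was lower among regions gained within a single code, at 28% in SSTE100 and 39.0% in SSJK001. The difference from all regions was present within each zone: on arms, 270 of 416 gained regions (64.9%) had H3K9me2 in both wild-type lists, against 39.2% of all arm regions. In autosome centres it was 40 of 111 (36%), against 8.63% of all regions there. On X it was 6 of 24, against 6.02%.

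Counted library by library over both temperatures, fewer gained regions had an H3K9me2 peak in lin-15B than in wild type. In the lin-15B lists the share was 31.2% and 40.8% at 20 °C and 35.9% and 34.7% at 26 °C, and in the wild-type lists 64.1% and 74.4% at 20 °C and 71.3% and 57.9% at 26 °C. Every lin-15B library was thus below every wild-type library. The lin-35 lists stood at 54.6% and 53.5% at 20 °C and 52.8% and 51.5% at 26 °C. The lin-37 lists stood at 55.2% and 46.5% at 20 °C and 49.7% and 48.1% at 26 °C. All of these lay under every wild-type list and above every lin-15B list, so a lower share was not particular to lin-15B. The lin-35 and lin-37 shares were not tested. The mean was 35.7% ± 3.98 in lin-15B and 66.9% ± 7.42 in wild type (SD, n = 4 each), a difference of −31.3 percentage points. The exact two-sided permutation p was 0.0286, the smallest that 4 against 4 libraries allows, and 0.0857 after Benjamini-Hochberg adjustment over the 3 sets of regions compared, which does not pass 0.05. Lost regions averaged 15.9% ± 3.54 in lin-15B and 22.8% ± 3.02 in wild type (exact permutation p = 0.0571, adjusted 0.0857). Regions called in all 4 H3K4me3 lists averaged 20.8% ± 4.83 in lin-15B and 26.9% ± 3.33 in wild type (exact permutation p = 0.0857, adjusted 0.0857). Taken as the share in gained regions minus the share in regions called in all 4 lists, the genotypes differed by −25.1 points (exact permutation p = 0.0286, unadjusted). The length of the gained regions covered by H3K9me2 averaged 23.3% ± 3.04 in lin-15B and 47.5% ± 7.80 in wild type (exact permutation p = 0.0286, adjusted 0.0857). Permuting within temperature gave p = 0.0556, the smallest that this arrangement allows (exact permutation test). The 26 °C libraries alone gave a difference of −29.3 points with an exact permutation p = 0.333, the smallest that 2 against 2 allows.

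**Figure D3:**
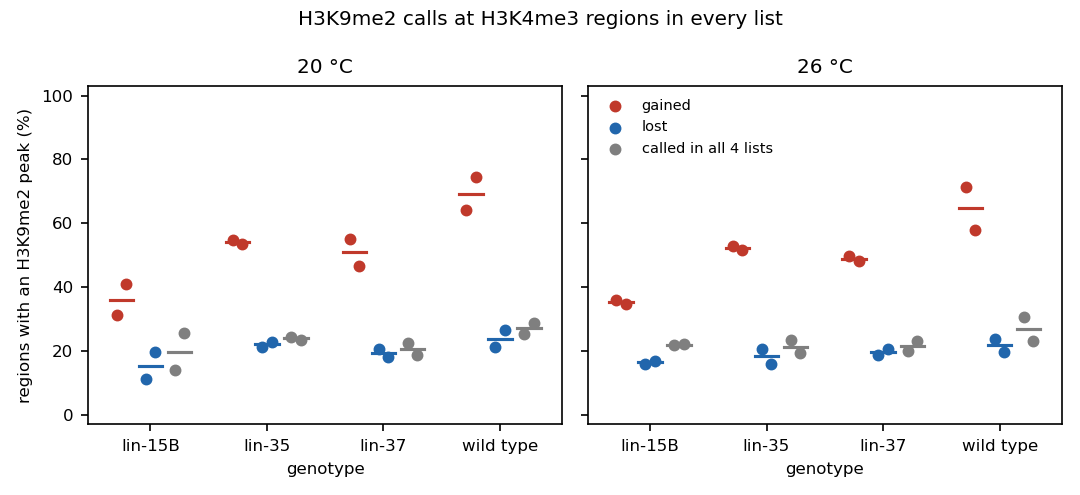
Percentage of gained, lost and shared (called in all 4 lists) H3K4me3 regions with an H3K9me2 peak, at 20 °C and 26 °C by genotype. Each point is 1 library and each bar the mean of 2; for gained regions the lin-15B points lie between 31.2% and 40.8% and the wild-type points between 57.9% and 74.4%.

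The gained regions divided into groups with different H3K9me2 patterns. Of the 316 with H3K9me2 in both wild-type lists of 26 °C, 119 (37.7%) had no H3K9me2 peak in either lin-15B list of 26 °C, 28 had one in a single list and 169 (53.5%) kept it in both. Among regions called in all 4 H3K4me3 lists, 197 of 957 (20.6%) had none in lin-15B. The 119 regions with the mark absent in lin-15B had median H3K4me3 folds of 8.51 and 7.45 in lin-15B replicates 1 and 2. Of their 115 autosomal members, 85 (73.9%) lay on arms. The 169 that kept it had 6.33 and 4.81, and 95.2% of their autosomal members lay on arms. The 155 without H3K9me2 in either wild-type list had 4.07 and 2.93, with 58.0% of the autosomal ones on arms and 17 on X. Gained regions without H3K9me2 in wild type were thus the weakest and the least confined to arms. H3K9me2 itself lay mostly on arms: of all merged regions with it in both wild-type lists, 1617 were on arms and 305 in autosome centres.

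The absence of H3K9me2 at those 119 regions recurred in lists that had not defined them. At 20 °C, 10 (8.40%) and 23 (19.3%) of the 119 had an H3K9me2 peak in the lin-15B lists, against 104 (87.4%) and 118 (99.2%) in the wild-type lists. The 20 °C lin-35 lists called 72 and 73 of them and the 20 °C lin-37 lists 75 and 54, values that lay between those of lin-15B and wild type. At 26 °C the lin-35 lists called 64 and 56 and the lin-37 lists 50 and 56. There the definition fixed lin-15B at 0 and wild type at 119, so no other order was possible. The 197 regions called in all 4 H3K4me3 lists with the same 26 °C H3K9me2 pattern behaved alike, with 7.11% and 22.8% called in the 20 °C lin-15B lists and 84.8% and 91.4% in the 20 °C wild-type lists. The recurrence was therefore not particular to gained regions. Of the 169 that kept the mark, the 20 °C lin-15B lists called 145 and 159 and the 20 °C wild-type lists 167 each. The 5 of the 119 that ranked highest by H3K4me3 were the chrIV:193897-194931, chrII:15230680-15231379, chrIV:17273264-17273986 and chrIII:12362917-12363809 regions and a 999 bp region on the right arm of IV (chrIV:13292799-13293797). The last had H3K4me3 folds of 33.2 and 21.2 in lin-15B at 26 °C and no H3K4me3 peak in any lin-35 or lin-37 list of that temperature.

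The 20 °C H3K4me3 lists, which took no part in choosing the regions, called gained regions far more often in lin-15B than in wild type. An H3K4me3 peak was present at 50.6% (code SSKK007) and 84.0% (SSTE100) of gained regions in the lin-15B lists, against 1.81% (SSKK007) and 2.90% (SSTE100) in the wild-type lists. The same lists covered 52.4% and 84.5% of all merged regions in lin-15B and 54.1% and 59.7% in wild type. The gained regions were therefore close to the overall share in lin-15B and far under it in wild type. The difference of 65.0 percentage points had an exact permutation p of 0.333, the smallest that 2 against 2 libraries can give. By region, 278 of 551 (50.5%) were called in both 20 °C lin-15B lists and 87 (15.8%) in neither. In wild type, 529 (96.0%) were called in neither 20 °C list. The full pattern, both lin-15B lists and no wild-type list, recurred at 268 gained regions (48.6%), against 2 lost regions (1.06%). These counts by region were not made for all merged regions.

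Lost regions showed no such separation at 20 °C. At 20 °C they were called at 3.70% and 61.9% in the lin-15B lists, against 27% and 30.7% in the wild-type lists (exact permutation p = 1). The lin-15B values lay on either side of both wild-type values, with the low one in SSKK007 and the high one in SSTE100. Both 20 °C wild-type lists held 37 of the 189 lost regions, and neither held 117 (61.9%). The full pattern, both wild-type lists and no lin-15B list, recurred at 4 lost regions (2.12%).

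**Figure D4:**
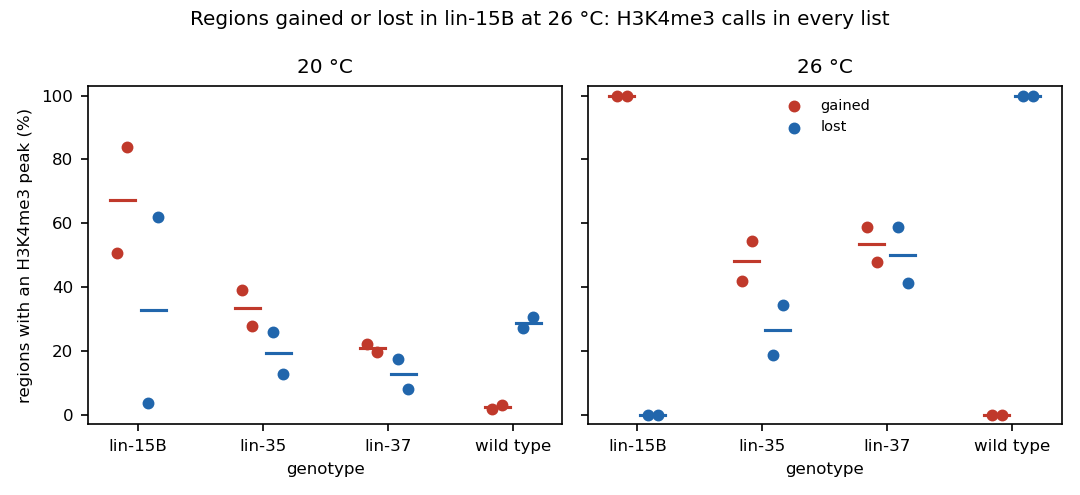
Percentage of gained and lost regions with an H3K4me3 peak in every list at 20 °C and 26 °C, by genotype; each point is 1 library and each bar the mean of 2. The 26 °C lin-15B and wild-type points are fixed at 0% or 100% by the definition, while at 20 °C gained regions stand at 50.6% and 84.0% in lin-15B and 1.81% and 2.90% in wild type.

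Recurrence at 20 °C followed the strength of the 26 °C signal. The gained regions were split into 4 rank groups of 137 or 138 by the lower of their 2 within-list fold percentiles, group 1 being the highest. In the 20 °C lin-15B replicate 1, 94.9%, 59.4%, 33.3% and 15.2% of groups 1 to 4 were called, and in replicate 2, 99.3%, 91.3%, 76.8% and 68.8%. In the 20 °C wild-type lists, group 1 was called at 2.19% and 0%, and group 4 at 4.35% and 10.9%. H3K9me2 in both wild-type lists of 26 °C marked 78.8%, 62.3%, 50.7% and 37.7% of groups 1 to 4. The share of autosomal members on arms was 86.6% in group 1 and 67.2% in group 4, and 3 and 13 members of those groups lay on X. Among gained regions, those with the highest H3K4me3 in lin-15B were thus most often on arms, under H3K9me2 in wild type and present in lin-15B at 20 °C. The same split was not made for other regions, so whether these trends are particular to gained regions was not tested.

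**Figure D5:**
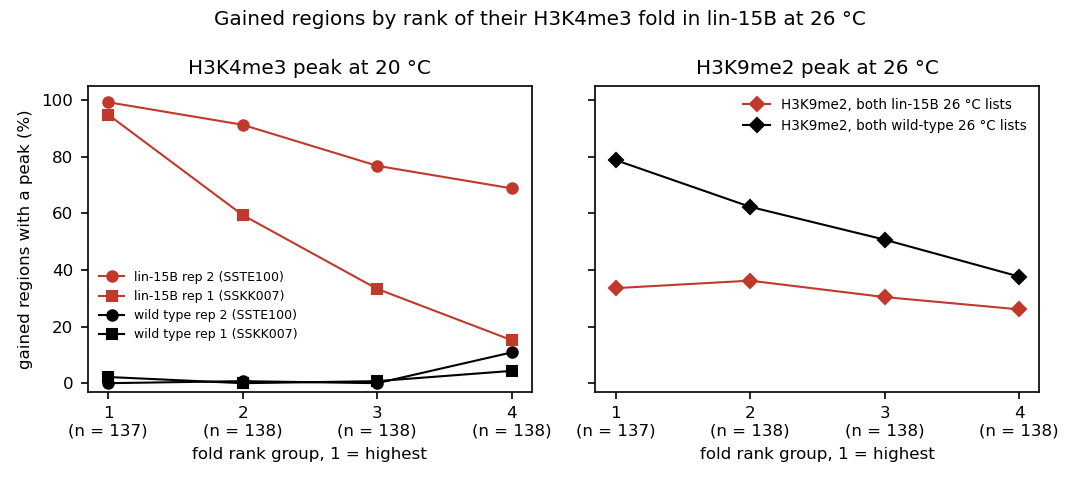
Gained regions in 4 rank groups by H3K4me3 fold in lin-15B at 26 °C (group 1 highest), with the percentage holding an H3K4me3 peak in each 20 °C list (left) and an H3K9me2 peak in both lists of a genotype at 26 °C (right). In group 1, 94.9% and 99.3% are called in the 20 °C lin-15B lists, against 2.19% and 0% in the 20 °C wild-type lists.

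H3K9me2 and recurrence also went together by group. Of the 119 gained regions with H3K9me2 in both wild-type lists and no lin-15B list of 26 °C, 90 (75.6%) were called in both 20 °C lin-15B H3K4me3 lists. The number was 84 of the 169 (49.7%) that kept H3K9me2, and 48 of the 155 (31.0%) without it in wild type. Both 20 °C wild-type H3K4me3 lists held 1, 1 and 2 regions of these groups. Their median H3K4me3 folds in lin-15B at 26 °C fell in the same order. They were 8.51, 6.33 and 4.07 in replicate 1 and 7.45, 4.81 and 2.93 in replicate 2. H3K9me2 was not separated from fold here, and the part of either in recurrence was not tested. The same counts were not made for all merged regions.

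The gained regions were partly shared with the other synMuv B mutants. At 26 °C the lin-35 lists held a peak at 41.7% and 54.3% of them and the lin-37 lists at 58.8% and 47.9%, and by definition the 26 °C wild-type lists held none. These were under the shares of all merged regions in the same lists, 58.2% and 63.9% in lin-35 and 69.1% and 68.0% in lin-37. Lost regions were called at 18.5% and 34.4% in lin-35 and 58.7% and 41.3% in lin-37. At 20 °C the shares were 39.0% and 27.8% in lin-35 and 22% and 19.6% in lin-37, against 1.81% and 2.90% in wild type. All merged regions stood at 67.8% and 53.4% in lin-35, 60.3% and 53.7% in lin-37, and 54.1% and 59.7% in wild type in those 20 °C lists. All 4 lists of lin-35 and lin-37 at 26 °C held 181 gained regions (32.9%), and none of them held 170 (30.9%). For lost regions these shares were 10.1% and 28.6%, and for all merged regions 52.4% and 21.4%. Among the 119 regions whose H3K9me2 peak was absent in lin-15B, all 4 held 68 (57.1%) and none held 26 (21.8%). These mutants were measured against the same wild-type lists that defined the gained regions. Folds of different lists are given side by side for a pair of named regions and were not compared. At chrIII:1411972-1414482 they were 4.36 and 5.19 in lin-35 and 44.9 and 17.6 in lin-37 at 26 °C. At chrII:3499096-3500198 they were 19.1 and 28.7 in lin-35 and 3.81 and 3.22 in lin-37.

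Gained and lost regions lay at similar distances from H3K4me3 called in every list, and no distance was taken for the other merged regions. The median distance to the nearest region called in all 4 lists was 4.74 kb for gained and 5.68 kb for lost regions, and 14.0% of gained and 16.4% of lost regions lay within 1 kb of one. Some gained regions had gained neighbours. With starts at most 50 kb apart, 50 runs of 3 or more held 184 gained regions (33.4%), while 229 had no other gained region within that distance. The same count was not made for lost regions or for all merged regions, so whether gained regions cluster was not tested. The run with the most gained regions, on the left arm of I, held 8 among 24 merged regions over 104.4 kb. A run on the left arm of III (chrIII:2458540-2594446) held 6 among 20, and one on the right arm of IV (chrIV:13199021-13306774) held 6 among 19. H3K9me2 was present in both wild-type lists of 26 °C at 5 of the 8 on I, 2 of the 6 on III and all 6 on IV. It was in neither lin-15B list of 26 °C at 3, 3 and 4 of them. No lost region lay inside these 3 runs, but lost regions were only 2.11% of all merged regions, so few could fall in spans this small. Each run also held regions called in all 4 lists, 12 on I, 8 on III and 9 on IV.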

How the data were processed

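Per the submitters' processing notes, reads were aligned with Bowtie 1.1.2 to ce10 and peaks were called with MACS2, whose version is not given in the sources used here. Per the peak names in the deposited lists, the H3K4me3 lists used a q cutoff of 0.01 and an extension of 250 bp; 1 H3K9me2 list (lin-15B, 20 °C, replicate 1) used 0.05. The deposited H3K4me3 lists give a fold ratio over input and −log10 p and q values per peak, made by the authors. The deposited H3K9me2 broad-peak lists give score columns, whose meaning was not settled and which served only to rank peaks. H3K4me3 immunoprecipitation was automated and H3K9me2 manual, per the labels' protocols. No read counts were used, so depth is unknown and no interval is given: a region without a peak is one where none was called.

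Sub-peaks with the same interval were collapsed to their highest fold. Regions were merged with Python 3.11.15, numpy 2.4.6 and pandas 2.3.3, and a list counted as present with 1 bp of overlap. Chromosome length was taken as the highest peak end of any list. Shares of regions per library were compared by exact two-sided permutation tests over libraries, adjusted over the 3 sets of regions. The merging and the permutation test were tested on simulated data. Regions and lists were chosen with earlier results of these data known. The regions named were the 10 gained, 5 lost and 5 gained with H3K9me2 in wild type only that ranked highest by the lower of their 2 within-list fold percentiles, and the 3 runs with most gained regions. Alternatives were a −log10 q of at least 5, equal peak numbers, merging over 250 bp gaps, a 200 bp overlap, each library left out, each library code alone, and permutation within temperature or replicate number.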

Additional observations from a re-analysis of the deposited data

How the results depend on the processing

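Counts of gained regions stayed within 1.5 times under a −log10 q of at least 5 (514 gained, 170 lost), gaps of 250 bp (514 and 173) and equal peak numbers (532 gained). Under these settings 57.7% to 58.95% of gained regions had H3K9me2 in both wild-type lists of 26 °C. On arms lay 77.7% to 80.0% of the autosomal ones, and on X 3.89% to 5.45% of all gained regions. Regions are not replicates, so no interval is given for these shares. A 200 bp overlap gave the reported 551 and 189. That outcome was fixed in advance, because no H3K4me3 peak was shorter than 250 bp. Lost regions came to 306 with equal peak numbers, which made gained regions 63.5% of both, against 74.5% as reported. Within SSTE100, 1802 regions were gained and 1023 lost, with 28% of the gained under H3K9me2 in both wild-type lists, 60.9% on arms and 11.1% on X. Within SSJK001 the values were 1120, 1477, 39.0%, 68.6% and 10.9%, and gained regions made up 43.1% of both, against 63.8% within SSTE100. Leaving out each 26 °C library gave 576 to 1667 gained and 194 to 1004 lost regions, 29.2% to 56.3% under H3K9me2, 61.1% to 79.2% on arms and 4.86% to 10.6% on X. The gained count was 1667 without lin-15B replicate 1, and the lost count was 986 without lin-15B replicate 2, 364 without wild-type replicate 1 and 1004 without wild-type replicate 2. Counts from fewer lists have fewer conditions to meet, so their rise was largely fixed in advance. Leaving out lin-15B replicate 2 or wild-type replicate 2 put gained regions at 42.1% and 36.5% of both.

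The H3K9me2 difference at gained regions was −34.3 to −28.8 points with each library left out (exact permutation p = 0.0286 each, unadjusted). It was −31.3 points (p = 0.0556) permuted within temperature and −29.3 points (p = 0.333) at 26 °C alone, both exact permutation tests. With replicate number as a block it was −31.3 points (exact sign-flip permutation p = 0.125). Each of these p-values is the smallest that its number of arrangements allows, so they do not rank the settings. The numbers share no stated batch: deviations of same-numbered libraries correlated at 0.0199 and 0.0361 for H3K9me2 at 20 °C and 26 °C and −0.0872 for H3K4me3 at 26 °C. The 20 °C H3K4me3 difference was 48.3 to 81.7 points with each library left out (exact permutation p = 0.333 each). No depth is known, so weak regions near the calling cutoff cannot be separated from uncalled ones.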
